A study of Mus musculus with 12 samples.

Results

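The genes described here are 41 interferon-stimulated genes, out of 47069 genes in the count table of mouse tibia shafts. The list was chosen by gene symbol with the counts of these same mice and the fits between their groups in view, so that the levels below are a description and the list is not independent of them. The list separates 10 type I genes (*Ifit1*, *Ifit2*, *Ifit3*, *Oas1a*, *Oas2*, *Oas3*, *Oasl1*, *Oasl2*, *Mx1* and *Mx2*) from 5 GTPases that respond to interferon gamma (*Gbp2*, *Gbp3*, *Gbp7*, *Igtp* and *Iigp1*), and holds 26 other genes.

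RNA was sequenced from tibia shafts of 12 male mice aged 8 weeks, after the marrow had been flushed out, with 1 library per mouse and 4 mice per group. Jrt;Sost-ko mice had the genotype *Col1a1*Jrt/+ *Sost*-/-, which joins a dominant *Col1a1* splice mutation that models severe osteogenesis imperfecta with loss of sclerostin, the Wnt antagonist made by osteocytes. Jrt;Sost-het mice are *Col1a1*Jrt/+ in the labels, and that they carried 1 *Sost* null allele comes from the methods of the study. The WT mice carry the genotype label WT,WT, and all 3 groups were of mixed FVB/C57BL6 background. The Jrt groups came from a colony started from a recombinant that carried both alleles on the same chromosome and the WT mice from a separate one kept in parallel, so that in comparisons with WT the colony cannot be told apart from the genotype. Mouse numbers within a group follow the order of the labels and pair no mice across groups.

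*Sost*, at 50.7, 72.3, 62.2 and 28.5 CPM in WT mice 1 to 4 and 28.0, 34.6, 70.4 and 26.8 in Jrt;Sost-het mice, had 0.571, 1.28, 0.508 and 0.326 CPM in Jrt;Sost-ko mice. CPM are the reads counted on a gene, scaled to a common library total and normalized over the 12 libraries, which held between 24366061 and 44418863 such reads. Osteoblast and osteocyte markers were present in every mouse, with a summed level of 1425 to 3227 CPM in WT, 2076 to 3016 in Jrt;Sost-het and 2335 to 3252 in Jrt;Sost-ko mice, while *Fgf23*, 1 of the 10, stayed under 1 CPM. Transcripts of marrow cells, muscle and, in WT mice 3 and 4, skin were also present. In such bulk samples, fewer cells of a type and less RNA per cell cannot be told apart.

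Cells that detect foreign nucleic acid secrete type I interferons, which act through the receptor IFNAR on the same and on neighbouring cells and switch on a large set of antiviral genes through a complex that holds STAT2 and IRF9. Interferon gamma, made mainly by T and NK cells, acts through another receptor, and the guanylate-binding proteins and immunity-related GTPases are among its best known targets, although many genes answer to both. In bone, both kinds of interferon are known to restrain the formation of osteoclasts.

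The letters that STAT and IRF proteins read were looked up in the promoters of the members. Windows of 250 bases before to 50 after the start (RefSeq, GRCm38.p6) were at hand for 30 of the 41 members. The core of the interferon-stimulated response element, searched on both strands as GAAA, then 2 bases of any kind, then GAAA, was found in 17 of the 30 (56.7%), against 3.99% of 27025 genes with a window. It was present in 4 of 7 type I genes, 4 of 4 interferon-gamma GTPases and 9 of 19 other members. The motif TTCNNNGAA, the gamma-activated site, which reads the same on both strands, was found in 8 of the 30 members (26.7%), against 9.55% of genes. The stretches below lie before the start of genes of several roles and are written 5′ to 3′ in the direction of the gene. Capitals mark the response element, or its reverse complement where it lies on the other strand.
Ifit1 (chr19:34640755-34640843, plus strand): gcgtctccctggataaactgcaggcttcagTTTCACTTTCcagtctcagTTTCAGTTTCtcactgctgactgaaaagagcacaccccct
Ifit3 (chr19:34583343-34583446, plus strand): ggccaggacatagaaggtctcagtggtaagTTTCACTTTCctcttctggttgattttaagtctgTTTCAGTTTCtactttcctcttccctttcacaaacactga
Oas3 (chr5:120777695-120777764, minus strand): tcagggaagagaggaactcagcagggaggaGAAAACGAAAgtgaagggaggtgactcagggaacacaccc
Isg15 (chr4:156200845-156200926, minus strand): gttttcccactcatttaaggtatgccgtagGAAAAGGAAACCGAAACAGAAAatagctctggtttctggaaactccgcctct
Stat2 (chr10:128270248-128270315, plus strand): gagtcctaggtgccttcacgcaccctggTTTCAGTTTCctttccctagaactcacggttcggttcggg
Bst2 (chr8:71537557-71537632, minus strand): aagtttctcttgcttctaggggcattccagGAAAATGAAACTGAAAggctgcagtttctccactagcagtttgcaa
Gbp7 (chr3:142530253-142530322, plus strand): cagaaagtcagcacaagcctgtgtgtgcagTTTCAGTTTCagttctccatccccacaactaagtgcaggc
Igtp (chr11:58199492-58199555, plus strand): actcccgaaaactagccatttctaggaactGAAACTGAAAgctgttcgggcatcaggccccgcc
In *Ifit1* the element began 104 and 85 bases before the start. It was found 3 times in overlap in *Isg15* and 2 times in overlap in *Bst2*. *Gbp7*, *Igtp* and *Bst2* also held a gamma-activated site in the window. A match is a description of these letters. No window was held for *Dhx58*, *Zbp1*, *Oas2*, *Mx1*, *Mx2*, *Usp18*, *Parp9*, *Parp14*, *Ifi27l2a*, *Rtp4* and *Iigp1*.

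All 41 members were expressed in every mouse, with raw counts from 70 (*Mx2*) to 17242 (*Rsad2*) in a mouse. Per kilobase of exon, the mean level over the 12 mice was highest for *Isg15*, a ubiquitin-like modifier, at 88.4 CPM per kb, followed by *Ifi27l2a* at 83.2 and *Rsad2*, the antiviral enzyme viperin, at 75.0. The lowest levels on that scale were those of *Ifi44* at 0.839 and *Mx2* at 0.941 CPM per kb. Some values may hold reads of a near copy. Of the 100-base words of its longest transcript, *Oas1a* shared 40.9% with *Oas1g* or another gene, *Ifit3* 31.7% with *Ifit3b* and *Herc6* 20.9% with *Gm45193*. In all, 10 members shared over 1%. Among the interferon-gamma GTPases, *Gbp7* shared 10.2% with *Gm43802* or *Gbp3*. *Igtp* shared 5.67% with *Irgm2*, whose exons it overlaps on the same strand. *Irgm2* is among the further interferon-gamma targets below, so these 2 may hold the same reads. Exons of 16 members overlap those of another gene, such as *Parp9* and *Dtx3l* on opposite strands, and the strand setting of the counting is not given in the sources used here.

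Jrt;Sost-ko mouse 1 had the highest CPM of the 12 mice in 41 of the 41 members. The same mouse was highest in 7.03% of the 16739 genes that were tested for Jrt;Sost-ko over Jrt;Sost-het. Its CPM, divided by the median of the other 3 Jrt;Sost-ko mice, had a median over the members of 2.30 and ranged from 1.33 (*Psmb8*) to 5.90 (*Ifi44*), and over all genes tested the median of this ratio was 0.991. The ratio was above 1.5 in 40 members, against 7.94% of genes, and above 2 in 25. Against the highest of the other 11 mice, mouse 1 was 1.09 to 4.21 times as high. WT mouse 4 was lowest in 27 members, against 17.4% of genes, and Jrt;Sost-ko mouse 2 in 10, against 8.18% of genes.

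**Figure D1:**
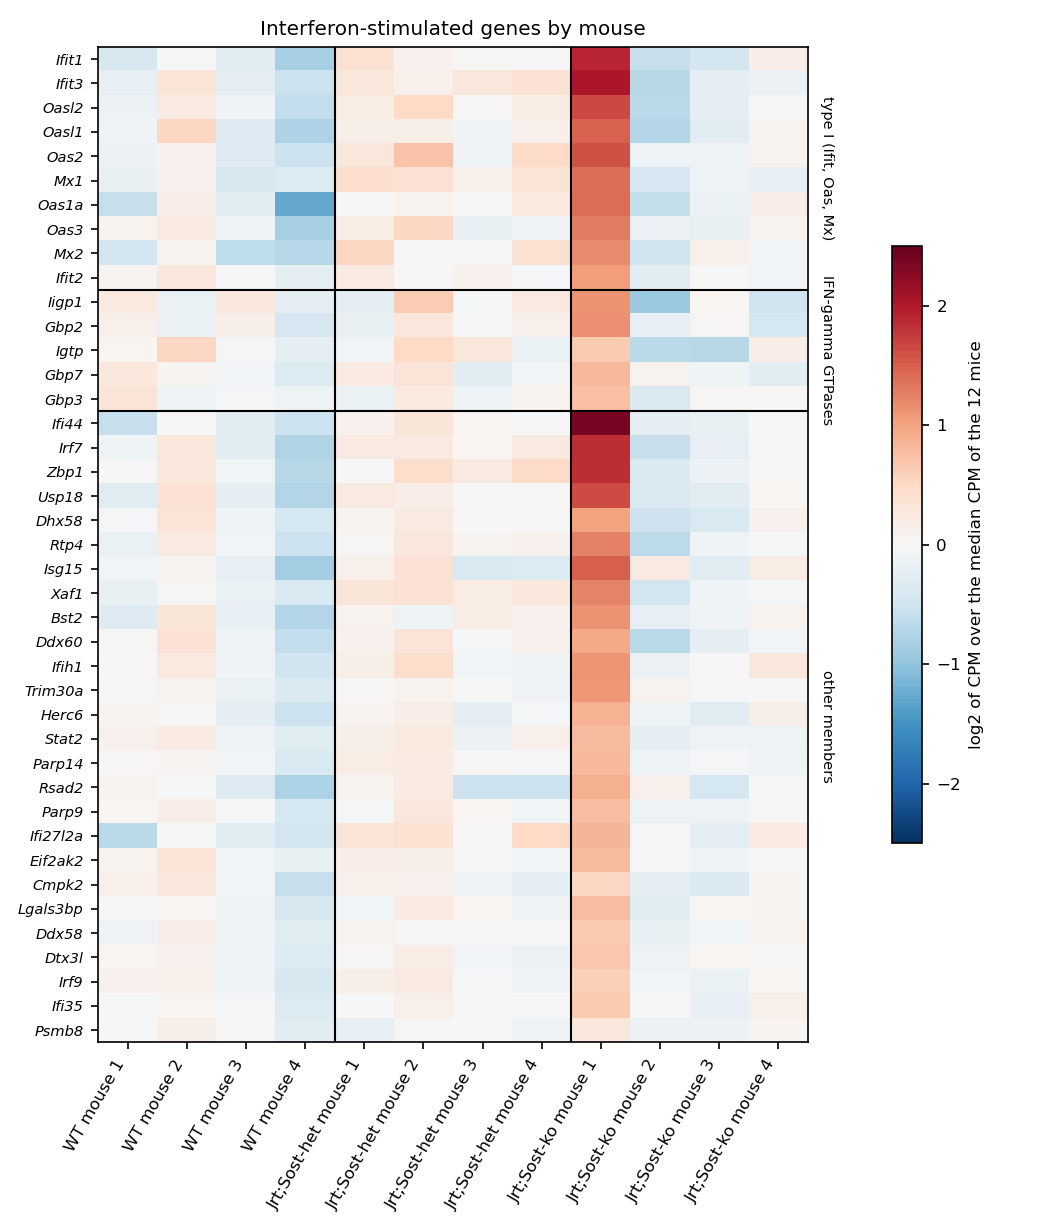
Level of each of the 41 genes (rows, by class and then by the ratio in Jrt;Sost-ko mouse 1) in each of the 12 mice (columns), as the log2 of CPM over the median of the 12 mice. The column of Jrt;Sost-ko mouse 1 is the highest in all 41 rows, and WT mouse 4 is the lowest in 27.

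Among the type I genes, the ratio of mouse 1 to the median of the other Jrt;Sost-ko mice had a median of 3.12, with a range of 2.15 to 5.13. It was 2.51 for the interferon-gamma GTPases, with a range of 1.66 to 3.08, and 1.94 for the other members. The classes overlapped, and the difference between them was not tested. *Ifit1* was measured at 9.63, 12.6, 10.4 and 7.09 CPM in WT mice 1 to 4, at 16.4, 13.6, 12.8 and 12.7 in Jrt;Sost-het mice and at 47.2, 8.45, 9.20 and 14.2 in Jrt;Sost-ko mice. IFIT1 binds viral RNA caps and blocks their translation. Mouse 1 stood 5.13 times as high as the median of the other Jrt;Sost-ko mice for *Ifit1*, and the remaining 11 mice lay between 7.09 and 16.4 CPM. For *Oas2* the values in Jrt;Sost-ko mice 1 to 4 were 66.9, 20.6, 20.9 and 23.5 CPM, against 26.9, 36.4, 20.6 and 31.2 in Jrt;Sost-het mice, while WT mice had 20.1, 23.9, 17.7 and 15.3. OAS2 makes 2′-5′-linked oligoadenylates, the activator of RNase L. Outside mouse 1, its levels in Jrt;Sost-ko mice overlapped those of both other groups. *Mx1* had 11.68, 14.4, 10.1 and 10.4 CPM in the WT mice, 17.8, 16.9, 14.5 and 16.8 in the Jrt;Sost-het mice and 34.9, 9.87, 12.2 and 11.4 in the Jrt;Sost-ko mice, each in the order of their numbers. Mx GTPases trap viral nucleocapsids. The other 3 Jrt;Sost-ko mice lay below the 4 Jrt;Sost-het mice and within the range of the WT mice or under it.

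*Ifi44*, an interferon-induced gene of little known function, had the largest ratio of all. For *Ifi44* the values in Jrt;Sost-ko mice 1 to 4 were 20.7, 3.42, 3.503 and 3.98 CPM, against 4.31, 4.91, 4.14 and 4.01 in Jrt;Sost-het mice, while WT mice had 2.69, 4.03, 3.31 and 2.74. Outside mouse 1 no mouse exceeded 4.91 CPM. *Isg15* was measured at 57.3, 63.3, 52.1 and 33.2 CPM in WT mice 1 to 4, at 65.6, 77.1, 46.4 and 47.3 in Jrt;Sost-het mice and at 171, 70.0, 50.2 and 68.5 in Jrt;Sost-ko mice. For *Irf7* the values in Jrt;Sost-ko mice 1 to 4 were 207, 38.5, 49.5 and 55.8 CPM, against 66.2, 67.4, 59.2 and 66.7 in Jrt;Sost-het mice, while WT mice had 53.7, 69.9, 47.3 and 34.1. IRF7 is the transcription factor that amplifies type I interferon production, and it is itself induced by interferon. Mouse 1 had 4.18 times the median of the other Jrt;Sost-ko mice for *Irf7* and 2.49 times for *Isg15*. *Stat2* had 66.7, 70.9, 56.5 and 50.02 CPM in the WT mice, 67.9, 73.0, 56.0 and 67.3 in the Jrt;Sost-het mice and 107, 53.1, 56.7 and 56.3 in the Jrt;Sost-ko mice, each in the order of their numbers. STAT2 and IRF9 form the DNA-binding complex of the type I pathway, and their ratios were lower, at 1.89 and 1.59. *Bst2* was measured at 27.6, 43.0, 30.1 and 20.9 CPM in WT mice 1 to 4, at 36.7, 31.8, 39.1 and 37.4 in Jrt;Sost-het mice and at 75.0, 30.2, 32.6 and 36.9 in Jrt;Sost-ko mice. BST2, or tetherin, holds budding virions at the cell surface and also marks plasmacytoid dendritic cells. Without mouse 1, the 3 groups overlapped for *Bst2* and *Isg15*. *Psmb8* had 99.2, 111, 102 and 82.4 CPM in the WT mice, 87.5, 102, 101 and 94.4 in the Jrt;Sost-het mice and 121, 90.9, 91.1 and 105 in the Jrt;Sost-ko mice, each in the order of their numbers. For *Psmb8*, a catalytic subunit of the immunoproteasome, mouse 1 exceeded the next mouse, WT mouse 2, by 1.09 times, the least of all members.

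**Figure D2:**
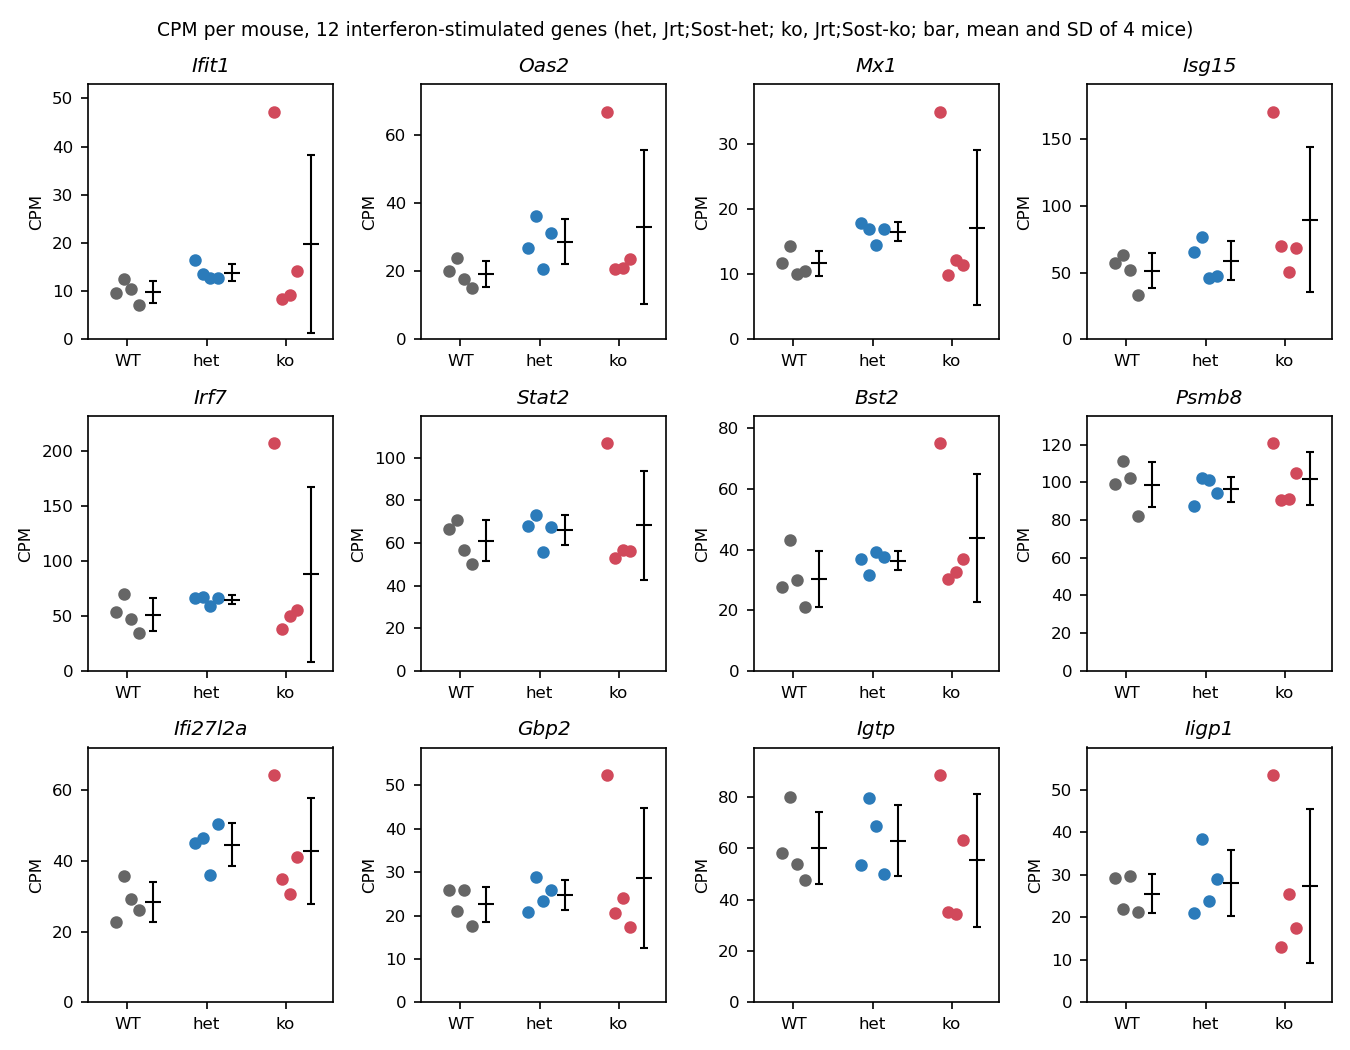
CPM of 12 members in each mouse (points, mice 1 to 4 from left to right in a group) with the mean and SD of the 4 mice of a group (bars). Jrt;Sost-ko mouse 1 is the highest point in each panel, and the other 3 Jrt;Sost-ko mice overlap at least 1 of the other groups.

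*Rsad2* was measured at 354, 338, 267 and 193 CPM in WT mice 1 to 4, at 349.9, 386, 229.8 and 229.7 in Jrt;Sost-het mice and at 616, 363, 246 and 329 in Jrt;Sost-ko mice. *Rsad2* had the highest CPM of all members, and mouse 1 stood 1.87 times as high as the median of the other Jrt;Sost-ko mice. The cytosolic sensors of nucleic acid had ratios between 1.63 for *Ddx58*, which codes for RIG-I, and 3.94 for *Zbp1*, a sensor of Z-form nucleic acid that can start necroptosis, with *Ifih1* (MDA5) at 2.18. *Usp18*, which removes ISG15 from proteins and dampens signalling at the type I receptor, stood at 3.81. The ratios of *Parp9*, *Parp14* and *Dtx3l*, which act together in ADP-ribosylation and ubiquitination, lay between 1.63 and 1.88. *Eif2ak2*, which codes for the kinase PKR that stops translation on double-stranded RNA, stood at 1.76, and *Trim30a* at 2.12. Members with the response element in their window had a median ratio of 2.26 (range 1.63 to 5.13) and those with a window but without it 1.99 (1.33 to 5.90), so that the ranges overlapped over most of their length.

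*Gbp2* was measured at 25.8, 21.1, 26.0 and 17.6 CPM in WT mice 1 to 4, at 20.8, 28.9, 23.3 and 25.8 in Jrt;Sost-het mice and at 52.4, 20.5, 23.9 and 17.3 in Jrt;Sost-ko mice. For *Gbp7* the values in Jrt;Sost-ko mice 1 to 4 were 121, 73.1, 63.9 and 56.6 CPM, against 80.2, 86.2, 56.8 and 65.9 in Jrt;Sost-het mice, while WT mice had 83.3, 72.4, 65.7 and 54.6. GBP2 and GBP7 are guanylate-binding proteins, which act against intracellular pathogens. In both, the 3 groups overlapped apart from mouse 1. For *Igtp* the values in Jrt;Sost-ko mice 1 to 4 were 88.7, 35.3, 34.5 and 63.2 CPM, against 53.4, 79.6, 68.8 and 50.2 in Jrt;Sost-het mice, while WT mice had 58.4, 80.2, 54.1 and 47.7. *Iigp1* had 29.2, 22.0, 29.8 and 21.2 CPM in the WT mice, 20.9, 38.5, 23.9 and 29.0 in the Jrt;Sost-het mice and 53.5, 13.0, 25.4 and 17.4 in the Jrt;Sost-ko mice, each in the order of their numbers. IGTP and IIGP1 are immunity-related GTPases that act on vacuoles holding parasites. *Igtp* in mouse 1 was close to the highest values elsewhere, at 1.11 times WT mouse 2, and the 3 remaining Jrt;Sost-ko mice ranged over 34.5 to 63.2 CPM. The order of the mice also differed between the classes. After mouse 1, the mean log2 CPM of the 5 GTPases was highest in Jrt;Sost-het mouse 2 (5.51) and WT mouse 1 (5.32), and that of the 10 type I genes in Jrt;Sost-het mouse 1 (4.36) and mouse 2 (4.36). WT mouse 4 had the lowest mean of the type I genes (3.44), 0.87 below WT mouse 2, and Jrt;Sost-ko mouse 2 the lowest mean of the GTPases (4.70).

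**Figure D3:**
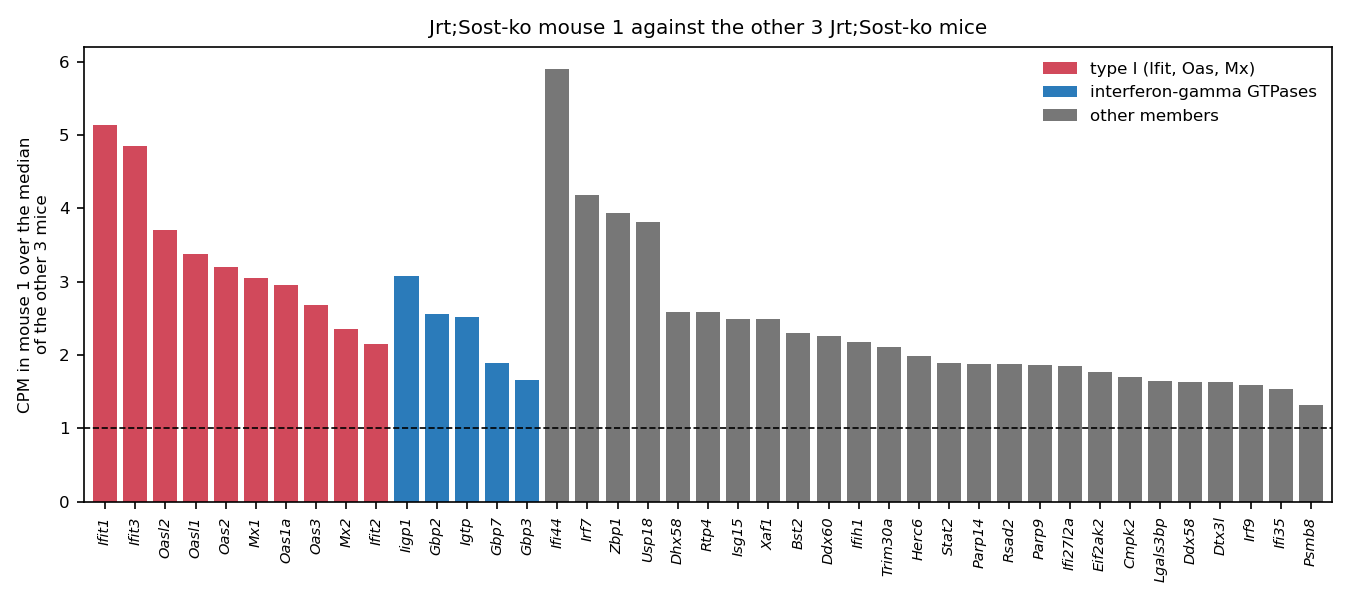
CPM in Jrt;Sost-ko mouse 1 divided by the median of the other 3 Jrt;Sost-ko mice, for each member, coloured by class. The dashed line marks a ratio of 1, and the bars run from 1.33 (*Psmb8*) to 5.90 (*Ifi44*).

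The median SD of log2 CPM over the members was 0.67 in Jrt;Sost-ko mice, 0.14 in Jrt;Sost-het and 0.28 in WT mice, against 0.17, 0.15 and 0.20 over all genes tested. Without mouse 1 it was 0.21 in the Jrt;Sost-ko mice. For the type I genes, the mean log2 CPM of a mouse averaged 4.32 ± 0.87 (SD, n = 4) in Jrt;Sost-ko, 4.29 ± 0.11 in Jrt;Sost-het and 3.87 ± 0.35 in WT mice, and 3.90 ± 0.24 in the other 3 Jrt;Sost-ko mice.

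The comparison of Jrt;Sost-ko over Jrt;Sost-het asks what the loss of the remaining *Sost* allele does in *Col1a1*Jrt/+ bone. The fitted level was higher in Jrt;Sost-ko mice for 37 of the 41 members. The median log2 fold change over the 41 was 0.18, and 50.4% of the 16739 genes tested had a log2 fold change above 0, with a median of 0.0013. The median was 0.26 for the type I genes (10 of 10 higher), 0.12 for the interferon-gamma GTPases (3 of 5) and 0.17 for the other members (24 of 26). None passed the test: with edgeR's quasi-likelihood test and Benjamini-Hochberg adjustment over all genes, 0 of 41 members had an adjusted p under 0.05 (range 0.901 to 0.998), against 0.00597% of genes, which is *Sost* alone (log2 fold change -5.87, SE 0.49, adjusted p = 0.013). DESeq2 called 0 of 41 as well, and 0 of 41 had an unadjusted p under 0.05 in edgeR, against 2.64% of genes higher and 2.38% lower. In 0 of 41 did the 2 groups separate without overlap, against 1.79% of genes higher and 1.4% lower in Jrt;Sost-ko mice.

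The largest log2 fold changes were those of *Ifi44* at 0.86 (SE 0.59), *Isg15* at 0.60 (SE 0.36) and *Ifit1* at 0.51 (SE 0.51). The lowest were those of *Igtp* at -0.19 (SE 0.30), *Ifi27l2a* at -0.061 (SE 0.22) and *Iigp1* at -0.041 (SE 0.41). These values depended on Jrt;Sost-ko mouse 1. That mouse was highest in all 41 members, so leaving it out lowers the mean of the Jrt;Sost-ko mice in each. The counts that follow describe the remaining 3 mice and are not a test. Without mouse 1, 38 of the 41 members were lower in Jrt;Sost-ko mice and the median over the 41 was -0.25. Of the 17006 genes then tested, 49.8% had a log2 fold change above 0. The median turned to -0.38 for the type I genes (10 of 10 lower), to -0.26 for the interferon-gamma GTPases (5 of 5 lower) and to -0.13 for the others (23 of 26 lower). No member was called (0 of 41 in edgeR, adjusted p from 0.923, against 0.0% of genes). At an unadjusted p under 0.05, 11 members were lower, against 2.37% of genes lower and 1.94% higher. In 9 members the 3 mice lay wholly below the Jrt;Sost-het mice, where 2.48% of genes lay below and 2.66% above.

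**Figure D4:**
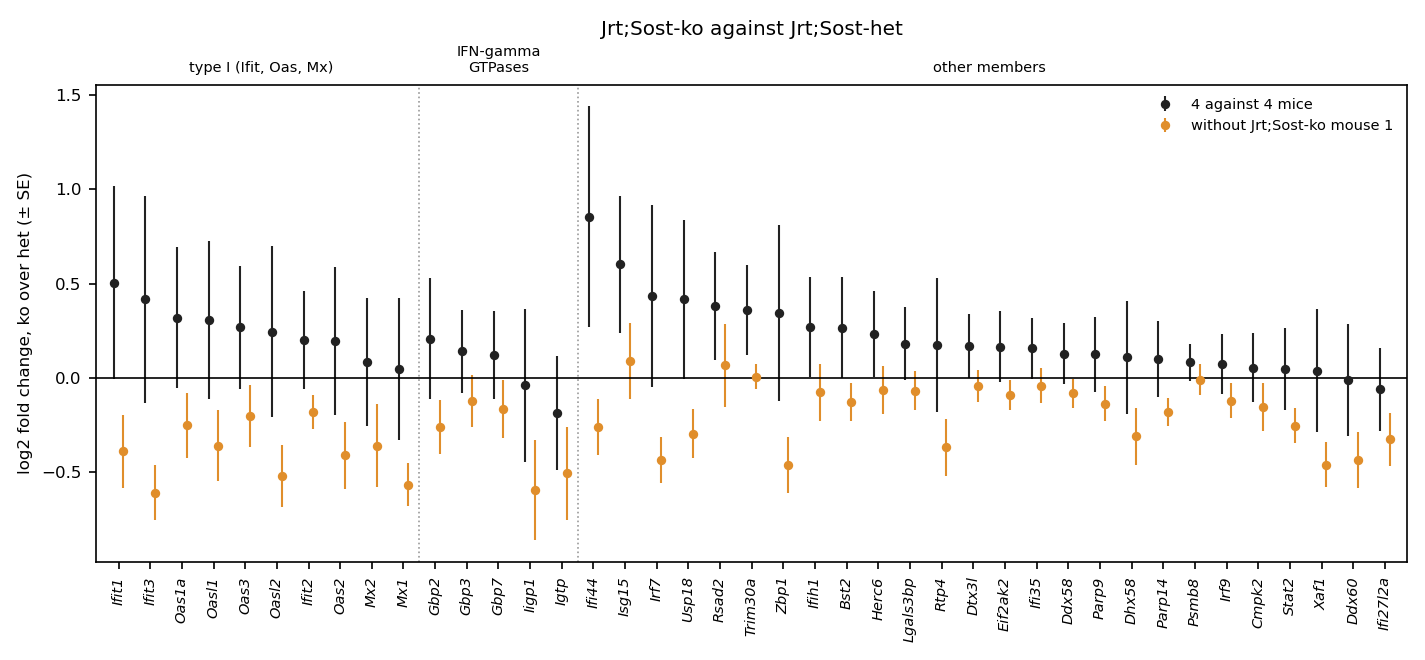
Log2 fold change of each member in Jrt;Sost-ko over Jrt;Sost-het mice (points, with the standard error), with all 8 mice and without Jrt;Sost-ko mouse 1. The median over the members is 0.18 with all mice and -0.25 without mouse 1.

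The 9 members that separated without mouse 1 were *Ifit3*, *Oasl2* and *Mx1* of the type I genes and *Ddx60*, *Zbp1*, *Irf7*, *Xaf1*, *Ifi44* and *Rtp4* of the others. For *Ifit3* the values in Jrt;Sost-ko mice 1 to 4 were 52.5, 7.97, 10.8 and 11.71 CPM, against 15.7, 14.1, 15.6 and 16.6 in Jrt;Sost-het mice, while WT mice had 11.3, 16.0, 10.98 and 8.92. Jrt;Sost-ko mice 2 to 4 lay below the 4 Jrt;Sost-het mice, and reads shared with *Ifit3b* make the level uncertain. The log2 fold change without mouse 1 was -0.61 (SE 0.15) for *Ifit3*, -0.57 (SE 0.12) for *Mx1* and -0.44 (SE 0.12) for *Irf7*. *Oasl2* had 36.6, 46.7, 37.8 and 26.3 CPM in the WT mice, 46.0, 56.8, 41.0 and 46.2 in the Jrt;Sost-het mice and 126, 25.5, 34.1 and 39.9 in the Jrt;Sost-ko mice, each in the order of their numbers. For *Zbp1* the values in Jrt;Sost-ko mice 1 to 4 were 39.3, 8.54, 9.97 and 10.9 CPM, against 11.1, 14.8, 12.8 and 15.3 in Jrt;Sost-het mice, while WT mice had 10.9, 13.2, 10.4 and 6.76. The other 3 Jrt;Sost-ko mice were below every Jrt;Sost-het mouse in both. *Ddx60* was measured at 25.1, 31.7, 22.7 and 16.0 CPM in WT mice 1 to 4, at 26.5, 30.5, 24.1 and 26.4 in Jrt;Sost-het mice and at 47.1, 15.5, 20.8 and 23.4 in Jrt;Sost-ko mice. For *Rtp4* the values in Jrt;Sost-ko mice 1 to 4 were 43.7, 11.6, 16.9 and 17.7 CPM, against 18.6, 22.2, 19.0 and 19.6 in Jrt;Sost-het mice, while WT mice had 16.3, 21.2, 17.5 and 12.6. DDX60 is a helicase linked to RNA sensing, and RTP4 a zinc-finger protein that dampens the interferon response. *Xaf1* was measured at 11.9, 13.8, 11.97 and 10.3 CPM in WT mice 1 to 4, at 16.7, 17.2, 15.3 and 16.1 in Jrt;Sost-het mice and at 31.6, 9.81, 12.7 and 13.1 in Jrt;Sost-ko mice. *Xaf1*, which codes for an antagonist of the apoptosis inhibitor XIAP, had a log2 fold change of -0.46 (SE 0.12) without mouse 1. *Isg15*, *Rsad2* and *Trim30a* were the 3 members that remained above 0, at 0.089 (SE 0.20), 0.066 (SE 0.22) and 0.0065 (SE 0.064). Since Jrt;Sost-ko mouse 2 was lowest in 10 members, it was also left out together with mouse 1, a choice made after the values were seen, and 36 of 41 members were then lower, 6 of them at an unadjusted p under 0.05 (1.55% of genes lower and 1.57% higher) and 9 without overlap (4.92% of genes lower and 5.49% higher), while 48.8% of genes had a log2 fold change above 0. *Dhx58* and *Ifi35* lie between *Col1a1* and *Sost* on chromosome 11 (GRCm38), so that for these 2 the *Sost* genotype and the parental alleles around it cannot be told apart.

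Jrt;Sost-het mice were compared with WT mice for the joint effect of the *Jrt* allele, the *Sost* allele and the colony. This comparison shares the Jrt;Sost-het mice with the one above. The fitted level was higher in Jrt;Sost-het mice for 40 of the 41 members. The median log2 fold change over the 41 was 0.18, and 51.3% of the 16775 genes tested had a log2 fold change above 0, with a median of 0.0036. The median was 0.45 for the type I genes (10 of 10 higher), 0.076 for the interferon-gamma GTPases (5 of 5) and 0.15 for the others (25 of 26). Again 0 of 41 were called by edgeR (adjusted p of 0.99998 for each) and 0 by DESeq2, against 0.0% of genes in edgeR. Without adjustment, 8 members had a p under 0.05, all higher in Jrt;Sost-het mice, against 1.25% of genes higher and 0.894% lower, and 5 of the 8 were type I genes. In 4 members the 4 Jrt;Sost-het mice lay wholly above the 4 WT mice, against 0.739% of genes higher and 0.799% lower.

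These 4 were *Ifit1*, *Mx1*, *Xaf1* and *Ifi27l2a*. *Ifi27l2a* was measured at 22.6, 35.7, 29.2 and 26.0 CPM in WT mice 1 to 4, at 45.1, 46.4, 36.0 and 50.4 in Jrt;Sost-het mice and at 64.2, 34.7, 30.7 and 41.2 in Jrt;Sost-ko mice. The lowest Jrt;Sost-het mouse exceeded the highest WT mouse by a narrow margin, and the Jrt;Sost-ko mice spanned both groups. *Ifi27l2a*, whose human relative IFI27 is among the most strongly interferon-induced transcripts, had the largest log2 fold change, 0.66 (SE 0.16). *Xaf1* stood at 0.45 (SE 0.099), *Mx1* at 0.51 (SE 0.13) and *Ifit1* at 0.49 (SE 0.17). For *Mx2* the values in Jrt;Sost-ko mice 1 to 4 were 7.21, 2.26, 3.503 and 3.07 CPM, against 4.57, 3.19, 3.20 and 4.14 in Jrt;Sost-het mice, while WT mice had 2.30, 3.38, 2.05 and 1.94. *Mx2* (annotated as a polymorphic pseudogene) and *Oas2* had log2 fold changes of 0.65 (SE 0.22) and 0.59 (SE 0.19), with 1 or more Jrt;Sost-het mice within the WT range for each. *Psmb8* was the only member below 0, at -0.030 (SE 0.093).

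**Figure D5:**
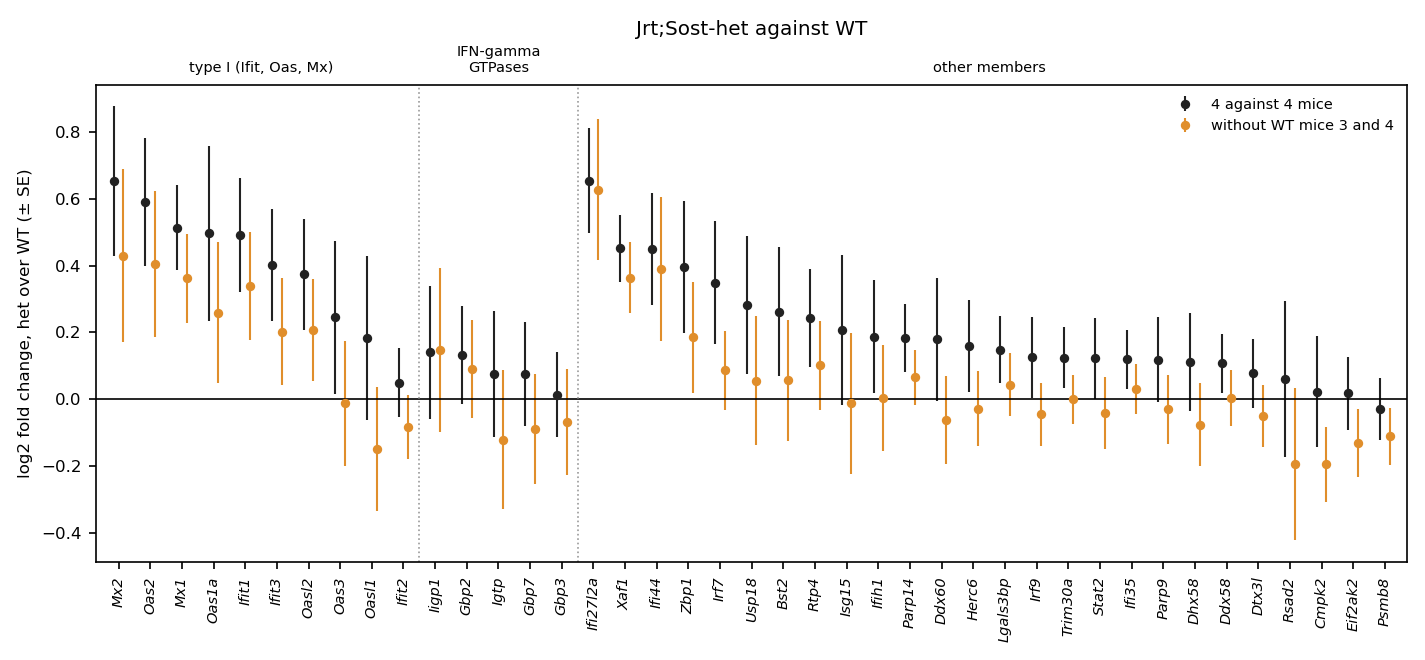
Log2 fold change of each member in Jrt;Sost-het over WT mice (points, with the standard error), with all 8 mice and without WT mice 3 and 4, which held skin transcripts. *Ifi27l2a*, *Mx2* and *Oas2* have the largest values in both fits, and the median over the members is 0.18 with all mice and 0.0035 without WT mice 3 and 4.

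Over all members, the difference from WT was smaller without WT mouse 4. That mouse was lowest of the 12 mice in 6 of 10 type I genes and in 27 of 41 members. Leaving it out raises the mean of the WT mice in those genes, so the counts without it are a description and not a test. WT mice 3 and 4 also held skin transcripts: the keratin gene *Krt10* was at 48.8 and 208 CPM there and between 1.35 and 2.07 CPM in the other 10 mice, while the 8 epidermal markers summed to 4.82 to 648 CPM in WT, 4.61 to 6.44 in Jrt;Sost-het and 4.14 to 6.36 in Jrt;Sost-ko mice. WT mouse 4 also had the highest sum of muscle markers of the 12 mice, 22157 CPM, and the highest of endothelial markers, 430.1 CPM. Next in both was Jrt;Sost-het mouse 4, at 21305 and 408.9 CPM. WT mouse 4 had the lowest sums of macrophage and monocyte markers (1341 CPM), T and NK cell markers (60.5 CPM) and neutrophil markers (15656 CPM). The other WT mice had up to 1718, 103 and 29009 CPM. Osteoblast and osteocyte markers summed to 3227 CPM in WT mouse 4, where the other WT mice had up to 2162. Its erythroid markers summed to 17152 CPM, the lowest of the WT mice. Without WT mouse 4, 31 of 41 members were higher in Jrt;Sost-het mice, with a median of 0.043, against 51.2% of genes. For the type I genes the median was 0.28 in this fit, with 9 of 10 higher, against 0.45 with all mice. For the interferon-gamma GTPases it was -0.028, with 2 of 5 higher. An unadjusted p under 0.05 was then reached by 5 members, against 4.58% of genes higher and 4.81% lower, and 4 did not overlap, against 3.4% higher and 4.82% lower. Without WT mice 3 and 4, 23 of 41 were higher, with a median of 0.0035, against 52.9% of genes, and 3 had an unadjusted p under 0.05, against 12.7% of genes higher and 7.15% lower. The type I median was then 0.23 and that of the interferon-gamma GTPases -0.068. *Ifit1*, *Mx1*, *Xaf1* and *Ifi27l2a* lay above the remaining 2 WT mice without overlap, as did 16.2% of genes in this smaller comparison. The part of skin, muscle, endothelial, bone or blood cell transcripts in these values was not tested beyond leaving out the 2 mice.

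Jrt;Sost-ko mice were compared with WT mice in the same way, sharing mice with both comparisons above. The fitted level was higher in Jrt;Sost-ko mice for 40 of 41 members. The median log2 fold change over the 41 was 0.42 (0.68 for the type I genes, 0.15 for the interferon-gamma GTPases and 0.36 for the others), and 49.1% of the 17155 genes tested had a log2 fold change above 0. No member was called by edgeR (0 of 41, adjusted p of 0.9996 for each, against 0.00583% of genes) or by DESeq2, 1 member had an unadjusted p under 0.05 (*Ifi27l2a*, against 2.26% of genes higher), and in 0 of 41 were the groups apart (1.29% of genes higher and 1.11% lower). *Ifi44* had the largest value, 1.31 (SE 0.62), followed by *Ifit1* at 1.001 (SE 0.55) and *Ifit3* at 0.82 (SE 0.58), and *Igtp* the only value below 0, -0.11 (SE 0.32). Without Jrt;Sost-ko mouse 1, 19 members were higher and 22 lower, with a median of -0.015, where 49.2% of genes were higher. The type I median was then -0.0066, and the 5 interferon-gamma GTPases were all lower, with a median of -0.13. *Ifi44* stood at 0.19 (SE 0.19) and *Ifit1* at 0.10 (SE 0.24) without that mouse.

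The other genes of the pathway were read in the same fits. The 20 listed genes for type I and type III interferons had between 0 and 3 counts in all in a mouse, with 1 count in Jrt;Sost-ko mouse 1, and *Ifnb1*, named after its counts were seen, had 0 counts in 11 mice and 2 in WT mouse 4. A count of 0 allows a level of up to 3 counts, and at such counts no difference between groups could be read for these ligands. *Ifng* had between 2 and 14 counts per mouse, with 14 in both Jrt;Sost-ko mouse 1 and WT mouse 2, and passed the filter on low counts only in the comparison of Jrt;Sost-ko over WT.

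*Ifnar1*, a subunit of the type I receptor, lay between 76.3 and 87.0 CPM in the 12 mice. *Ifnar2* had a log2 fold change of 0.074 (SE 0.077) and *Ifnlr1* of -0.080 (SE 0.11) in Jrt;Sost-ko over Jrt;Sost-het mice, and Jrt;Sost-ko mouse 1 was highest of the 12 mice in 0 of the 6. In none of the 3 comparisons was a gene of the pathway lists called: 0 of 6 receptors, 0 of 11 signalling and IRF factors, 0 of 13 genes upstream of interferon, 0 of 8 tested negative regulators and 0 of 28 further interferon-gamma targets had an adjusted p under 0.05 in edgeR. Their medians in Jrt;Sost-ko over Jrt;Sost-het mice were 0.0099, -0.028, 0.076, 0.056 and 0.019 in that order. Without Jrt;Sost-ko mouse 1 they were -0.0074, -0.030, -0.015, -0.0012 and -0.23. The number of further interferon-gamma targets with a higher level in Jrt;Sost-ko mice went from 14 of 28 to 1 of 28. Over all genes tested, the share above 0 was 50.4% with mouse 1 and 49.8% without it. Mouse 1 was highest of the 12 mice in 21 of the 28. Leaving it out therefore lowers the mean of the Jrt;Sost-ko mice in these, and the change is not a test. With all mice of both groups, an unadjusted p under 0.05 in edgeR was reached by 1 of the 28 and by 0 genes of the other 4 lists. Of all genes, 2.64% reached it higher and 2.38% lower. In Jrt;Sost-het over WT mice it was reached by 1 of 11 signalling factors, 1 of 13 upstream genes, 1 of 8 negative regulators and 3 of 28 interferon-gamma targets, against 1.25% of all genes higher and 0.894% lower. In Jrt;Sost-ko over WT mice it was reached by 1 signalling factor and 1 target, against 2.26% higher and 1.63% lower.

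Jrt;Sost-ko mouse 1 was highest of the 12 mice in 21 of the 28 detected further interferon-gamma targets, in 3 of 11 signalling and IRF factors, in 6 of 13 upstream genes and in 4 of the 8 detected negative regulators, among them *Socs1* and *Socs3*. For *Cxcl9* the values in Jrt;Sost-ko mice 1 to 4 were 64.4, 7.35, 10.4 and 8.58 CPM, against 11.5, 13.2, 13.4 and 17.3 in Jrt;Sost-het mice, while WT mice had 5.49, 11.4, 7.22 and 6.48. CXCL9 and CXCL10 are chemokines that draw activated T cells. The value of mouse 1 was 7.51 times the median of the other Jrt;Sost-ko mice for *Cxcl9* and 5.12 times for *Cxcl10*, above the largest ratio among the members for the former. *Cxcl10* had 1.95, 4.24, 2.09 and 2.10 CPM in the WT mice, 4.84, 4.41, 4.25 and 5.30 in the Jrt;Sost-het mice and 18.9, 3.12, 3.85 and 3.69 in the Jrt;Sost-ko mice, each in the order of their numbers. In Jrt;Sost-het over WT mice their log2 fold changes were 0.86 (SE 0.24) and 0.87 (SE 0.27), the 2 smallest unadjusted p-values of their list. *Socs3* was measured at 19.7, 13.2, 14.3 and 19.5 CPM in WT mice 1 to 4, at 21.3, 25.0, 19.0 and 20.1 in Jrt;Sost-het mice and at 59.4, 36.4, 16.6 and 12.2 in Jrt;Sost-ko mice. *Socs3*, an inhibitor of cytokine receptor signalling, was also high in Jrt;Sost-ko mouse 2. *Gbp11*, at -1.37 (SE 0.43) in Jrt;Sost-ko over Jrt;Sost-het mice, went the other way at under 1 CPM in every mouse.

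Marker lists of other cells were set beside mouse 1. Of 8 T and NK cell markers it was highest of the 12 mice in 5, and they summed to 111 CPM there, 63.3 to 87.0 in the other Jrt;Sost-ko mice, 67.9 to 93.5 in Jrt;Sost-het and 60.5 to 103 in WT mice. Of 6 plasmacytoid dendritic cell markers it was highest in 3, and the sums were 295, 208 to 226, 191 to 245 and 183 to 222 CPM in the same order. These sums include *Bst2*, 1 of the 3 and itself a member, at 75.0 CPM in mouse 1 and 20.9 to 43.0 in the other 11 mice. The other 2 were *Ccr9* and *Klk1*, named after their values were seen. *Ccr9* had 15.1 CPM in mouse 1 and at most 7.99 in the other 11 mice, and *Klk1* had 7.82 and at most 2.65. *Siglech*, from the same list, had 28.7 CPM in mouse 1 and between 8.39 and 30.2 in the others. Of 10 macrophage and monocyte markers it was highest in 3, among them *Fcgr1*, which interferon gamma induces, with sums of 1815, 1393 to 1675, 1481 to 1765 and 1341 to 1718 CPM. It was highest in 1 of 10 osteoblast and osteocyte and 1 of 7 endothelial markers, and in none of 8 neutrophil, 8 B cell, 8 erythroid, 8 muscle and 8 epidermal markers. No marker of these lists was at 0 counts in all mice. Muscle markers summed to between 22.9 and 22157 CPM over the 12 mice and to 7145 CPM in mouse 1. The part of any of these cells in the level of the members was not tested.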

How the data were processed

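RNA was sequenced from 12 tibia shafts by the authors, who aligned read pairs to GRCm38 with STAR. The tool, strand setting and annotation release of the counting are not given in the sources used here. The authors deposited raw counts for 47069 Ensembl genes, without normalization, and these counts are the only values used. The authors' tables of single mice and of their own comparisons (fold changes and p-values of DESeq2 and edgeR) were not used.

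For every comparison, the 8 mice concerned were fitted alone with edgeR 4.0.16 in R 4.3.3 (filterByExpr, TMM, glmQLFit, glmQLFTest), with Benjamini-Hochberg adjustment over all genes tested and a threshold of 0.05. All 41 members passed the filter in each comparison. Standard errors were taken as the log2 fold change divided by the root of F. CPM were normalized by TMM over the 12 libraries, and log2 CPM used a prior count of 2. The libraries held 24366061 to 44418863 reads on genes, and members had at least 70 reads in each mouse, so that counting error weighs most on genes of low count. Each library came from its own mouse. Alternatives were DESeq2 1.42.0, its size factors in edgeR, no filter, all 12 mice in 1 fit, leaving out each mouse in turn, leaving out WT mice 3 and 4 and the difference of mean log2 CPM. Leaving out Jrt;Sost-ko mice 1 and 2 together was added after the data were seen. Functions were tested on simulated counts.

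Positions, exon lengths and shared 100-base words come from GENCODE M21, and promoters from RefSeq (GRCm38.p6). The members and lists were chosen with earlier results of these data known. Values per mouse are given for at least 1 gene of each main role, the 3 largest log2 fold changes in each direction, and members whose groups did not overlap. Genes of the pathway lists are named if called or among the 2 smallest p-values of their list. Any other gene of the pathway or marker lists was named with its values known.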

Additional observations from a re-analysis of the deposited data

Results flagged for a closer look

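In groups of 4 mice, the gap between the most extreme mouse and its neighbour, divided by the range of the group, was compared with Dixon's 95% critical value of 0.829 for the CPM of each member. Of 123 pairs of member and group, 21 exceeded it. Chance alone passes this value in about 1 in 20 groups, but the members were chosen with these values in view and vary together, so that the count is a description and not a test. In 19 of the 21, Jrt;Sost-ko mouse 1 was the highest mouse of its group. Thus 19 of the 41 members exceeded the value with mouse 1 highest, as did 0.908% of all genes tested.

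Among the type I genes, the gap was 0.937 for *Oas2*, 0.916 for *Ifit3*, 0.907 for *Mx1*, 0.879 for *Oas3*, 0.860 for *Ifit2*, 0.857 for *Oasl2* and 0.853 for *Ifit1*. Of the regulators and sensors, *Stat2* had 0.933, *Zbp1* 0.923, *Irf7* 0.897 and *Usp18* 0.890. Of the effectors, *Ifi44* had 0.968, *Trim30a* 0.922, *Parp14* 0.916, *Eif2ak2* 0.903, *Parp9* 0.866, *Bst2* 0.850, *Xaf1* 0.850 and *Isg15* 0.836. The 5 interferon-gamma GTPases stayed under the critical value in Jrt;Sost-ko mice. The remaining 2 gaps were in Jrt;Sost-het mice, where mouse 3 was lowest for *Irf7* (0.848) and for *Oasl1* (0.948).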

How the results depend on the processing

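No member was called in any comparison under any of the alternatives run. Leaving out 1 mouse at a time moved the median log2 fold change of Jrt;Sost-ko over Jrt;Sost-het mice between -0.25 and 0.31 over all members, between -0.38 and 0.45 over the type I genes and between -0.26 and 0.21 over the interferon-gamma GTPases, the lower end of each being the fit without Jrt;Sost-ko mouse 1, which reversed it. The added fit without Jrt;Sost-ko mice 1 and 2 gave -0.18, -0.23 and -0.26 in the same order, and 0 genes called in all. For Jrt;Sost-het over WT mice the ranges were 0.043 to 0.26, 0.28 to 0.61 and -0.047 to 0.17. The interferon-gamma GTPase median turned below 0 without Jrt;Sost-het mouse 2 (-0.047), without WT mouse 4 (-0.028) and without WT mice 3 and 4 (-0.068). For Jrt;Sost-ko over WT mice they were -0.015 to 0.53, -0.0066 to 0.90 and -0.13 to 0.30, with the value below 0 in each case without Jrt;Sost-ko mouse 1. Of 574 values of single members under an alternative in each comparison, 86 changed sign for Jrt;Sost-ko over Jrt;Sost-het, 42 for Jrt;Sost-het over WT and 31 for Jrt;Sost-ko over WT, and 12, 0 and 7 moved by more than the spread between mice. The number of genes called among all genes was 1 for Jrt;Sost-ko over Jrt;Sost-het, 7 with DESeq2 and 0 to 3 with a mouse left out (0 without Jrt;Sost-ko mouse 1, 3 or 4). It was 0 in Jrt;Sost-het against WT mice, 4 with DESeq2 and 0 with any mouse left out. It was 1 in Jrt;Sost-ko against WT mice, 18 with DESeq2, 2 without the filter and 0 to 2 with a mouse left out (0 without Jrt;Sost-ko mouse 1, 3 or 4 or WT mouse 1 or 3, and 2 without WT mouse 4). With 4 mice per group and a library that stands apart, differences of the size seen in the members could not be told from the spread between mice. No paired analysis was possible because the labels give the groups no shared replicate numbers.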
